A study of Drosophila melanogaster with 10 samples.

Results

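Type II lineages labelled as depleted of both Brat and Spt5 were set against normal type II lineages of the larval Drosophila brain, to see what still separated them from the control. The comparison rests on 6 of the 10 libraries of the series, chosen by their labels, with 3 labelled brat-KD/Spt5-KD and 3 of control NB II, and on all 17676 genes of the count table. All larvae carried wor-GAL4, which is active in neuroblasts, ase-GAL80, which silences GAL4 where ase is expressed, and UAS-mCD8::GFP. The co-depleted larvae additionally carried UAS transgenes for a double-stranded RNA against brat and a short interfering RNA against Spt5, the 4 brat-KD libraries that are given for orientation came from larvae with the brat transgene alone, and control larvae had neither. Larvae were raised at 25 °C and were 96 h old per the labels, whereas the methods give a later age. Brains were pooled and dissociated, and cells were sorted before polyadenylated RNA was sequenced. The labels describe the sorted GFP-positive cells as NB II with their descendants, whereas the methods describe a gate on light scatter and GFP meant to pick out NB II, so how many descendants each library holds is not known. In such a bulk sample, fewer cells of a type and less RNA per cell cannot be told apart.

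Type II neuroblasts divide asymmetrically to renew themselves and to bud off intermediate neural progenitors (INPs), which mature, divide several more times and produce neurons and glia. Brat, a translational repressor that is inherited by the INP, ends self-renewal in this daughter cell, and without it the daughters revert to neuroblast-like cells and form a tumor. Spt5 is a subunit of the DSIF complex that accompanies RNA polymerase II, acting in promoter-proximal pausing and in transcript elongation.

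The targeted genes were examined first. brat (chromosome 2L, 19133816 to 19179758, BDGP6) stood at 284, 108 and 229 CPM (counts scaled to the effective library size, given for replicates 1, 2 and 3 of a genotype here and below) in brat-KD/Spt5-KD-labelled libraries, at 172 ± 36.6 CPM in brat-KD (SD, n = 4) and at 901, 933 and 986 CPM in control NB II. All 3 libraries labelled brat-KD/Spt5-KD lay below all controls, and the log2 fold change was -2.18 ± 0.34 (standard error) with an adjusted p of 0.0143 in edgeR's quasi-likelihood test, although the adjusted p was above 0.05 in 4 of the 6 fits that left out 1 library. Spt5 (chromosome 2R, 19437483 to 19441898) stood at 201, 118 and 567 CPM in brat-KD/Spt5-KD-labelled libraries, at 142 ± 16.1 CPM in brat-KD and at 233, 191 and 179 CPM in control NB II. Its mean was not below that of the control (log2 fold change 0.55 ± 0.52, adjusted p = 0.632), replicate 3 was the highest of the 6 libraries, and without it the log2 fold change was -0.40. The counts therefore do not show the lower Spt5 transcript of the label, and the spread between replicates leaves room for one. By quantitative PCR, the study reports less Spt5 transcript in larvae that expressed the short interfering RNA throughout the body. It also reports that an Spt5 transgene resistant to this RNA reversed its effects on the tumors. The libraries are called by their label throughout, and any direction drawn from them is a direction of the labelled genotype. Transcripts of the genes yellow and white also differed. The genotypes listed for these larvae name neither gene, and the cause was not tested. yellow (y), a cuticle pigment gene, stood at 13.8, 41 and 39.7 CPM in brat-KD/Spt5-KD-labelled libraries against 1 count in all controls together, a ratio of 601 with a 95% counting interval of 107 to 23800, and white (w), the usual marker of fly transgenes, at 152, 126 and 380 CPM in brat-KD/Spt5-KD-labelled libraries against 69.5, 50.8 and 56.6 CPM in control NB II (log2 fold change 1.89 ± 0.43, adjusted p = 0.041). w, brat and y overlap another annotated gene.

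Library totals were 2158058 to 4780947 counts in brat-KD/Spt5-KD-labelled libraries and 4968226 to 9753111 in control NB II. Replicate 1 stood apart in both genotypes. The first library labelled brat-KD/Spt5-KD had a count for 7544 genes, against 10819 and 9252 in the others, and the first control for 8558, against 11617 and 11537, and these 2 libraries had the lowest sample quality weights in limma (0.135 and 0.280). Results are therefore also given with both left out, an alternative chosen after seeing the data. The neuroblast marker mira was at 1079, 1215 and 907 CPM in brat-KD/Spt5-KD-labelled libraries and at 1065, 1120 and 1196 CPM in control NB II, and wor at 304, 394 and 284 CPM in brat-KD/Spt5-KD-labelled libraries against 185, 196 and 179 CPM in control NB II, so that both markers of the sorted lineages were present. dpn was at 15.7, 117 and 149.8 CPM in brat-KD/Spt5-KD-labelled libraries against 73.5, 68.2 and 71.2 CPM in control NB II, with replicate 1 far below its companions. Markers of other cells were present at different levels. The summed level of the glial list, which also holds pnt, was 675, 823 and 685 CPM in brat-KD/Spt5-KD-labelled libraries and 772, 569.8 and 579 CPM in control NB II, and that of the hemocyte and basement membrane list was 958, 895 and 516 CPM in brat-KD/Spt5-KD-labelled libraries and 343, 247 and 278 CPM in control NB II. The defining glial gene repo was at 0, 1.98 and 2.94 CPM in brat-KD/Spt5-KD-labelled libraries against 0, 7.74 and 9.36 CPM in control NB II, alrm did not exceed 8.67 CPM, the hemocyte genes NimC1 and He had no count in any library, and the fat body gene Lsp2 was at 0 in all libraries labelled brat-KD/Spt5-KD, whereas Lpin, which is also on the fat body list, was at 162, 45.8 and 53.9 CPM in brat-KD/Spt5-KD-labelled libraries and at 129.9, 121 and 103 CPM in control NB II. Hml, another hemocyte gene, was at 15.7, 8.38 and 6.37 CPM in brat-KD/Spt5-KD-labelled libraries and at 0 in every control. The fat body gene apolpp was at 0, 19.4 and 13.7 CPM in brat-KD/Spt5-KD-labelled libraries and at 0, 1.005 and 2.61 CPM in control NB II. It was not called (log2 fold change 3.18 ± 1.99, adjusted p = 0.428, and 0.0145 with both replicates 1 left out). apolpp overlaps 4 annotated genes.

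Of 8506 genes tested, 620 differed at an adjusted p under 0.05 (7.29%), with 338 higher (3.97%) and 282 lower (3.32%) in brat-KD/Spt5-KD-labelled libraries than in control NB II. Each count of list members below is to be read beside these shares. For each of the 620 the 3 libraries of one genotype lay wholly above or below the 3 of the other, as they did for 2903 of all genes tested (34.1%), so that every gene called below had no overlap between both genotypes. The median log2 fold change over all genes was -0.01 and the median size among the 620 was 1.74 on the log2 scale, with 140 genes over 4-fold higher, 109 over 4-fold lower and 48 changed by less than 2-fold. For comparison, 2467 of 8785 genes (28.1%) differed between brat-KD and the same controls, and 1017 of 8750 (11.6%) between brat-KD/Spt5-KD-labelled libraries and brat-KD. The number of calls depended on single libraries. It was 1504, 158 and 246 without replicate 1, 2 or 3 of brat-KD/Spt5-KD, 229, 64 and 94 without replicate 1, 2 or 3 of the control, and 2513 without both replicates 1, while 62 of the 620 passed in each of the 6 fits that left out 1 library. None of the 620 turned its sign in any of these fits, which was close to fixed in advance because their genotypes did not overlap. A further limit is that 372 of the 620 overlap another annotated gene. In 277 of 277 pairs of a gene with at least 500 counts over the 10 libraries nested within one on the opposite strand, the outer gene held at least 0.9 times the counts of the inner gene, so reads in overlaps cannot be assigned to one of the partners.

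**Figure D1:**
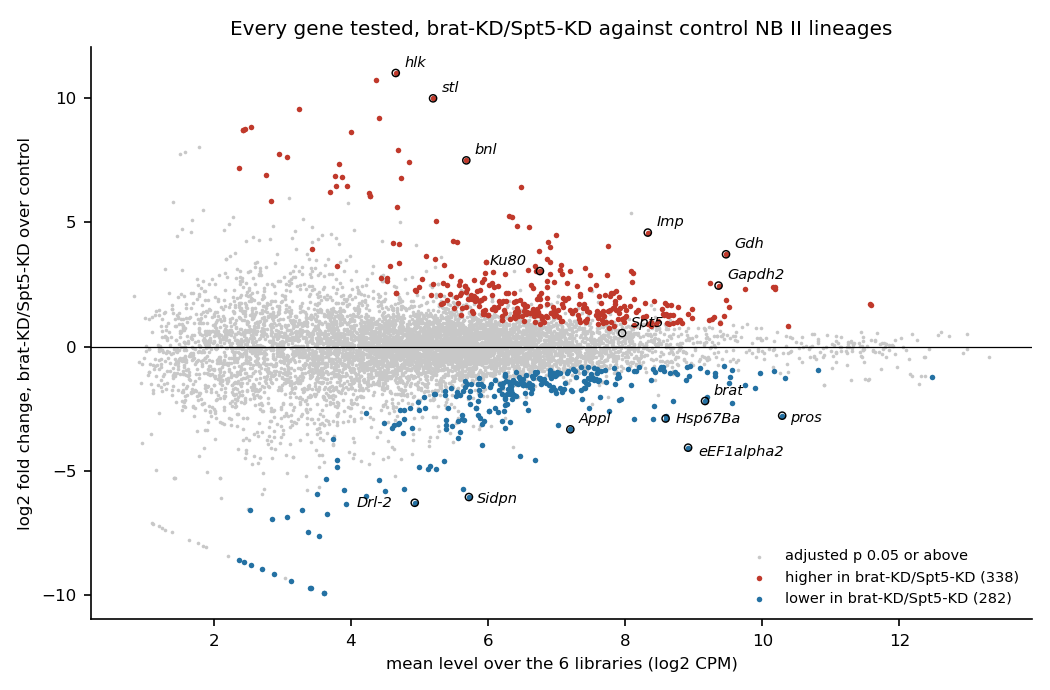
Each point is 1 of 8506 genes, with its mean log2 CPM over the 6 libraries on the x axis and its log2 fold change in brat-KD/Spt5-KD-labelled libraries over control NB II on the y axis. The 338 genes called higher and the 282 called lower are coloured, and both sets reach from low to high expression.

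Several factors of INP maturation and differentiation were lower in brat-KD/Spt5-KD-labelled libraries. Of 15 genes of this kind, 3 were called lower (1 to 10 with 1 library left out and 10 with both replicates 1 left out), none higher (1 in DESeq2, 1 at an unadjusted p under 0.05), 3 had a positive log2 fold change, and the median was -1.70, beside -0.01 over all genes. prospero (pros), the homeodomain factor that ends self-renewal in ganglion mother cells, was at 316, 303 and 343 CPM in brat-KD/Spt5-KD-labelled libraries, at 549 ± 38.6 CPM in brat-KD and at 1764, 2508 and 2296 CPM in control NB II. Each library labelled brat-KD/Spt5-KD lay far below the lowest control. The log2 fold change was -2.77 ± 0.21 (adjusted p = 0.00315), and pros remained past the threshold whichever library was left out. pros overlaps 6 annotated genes. Against brat-KD it was also lower (log2 fold change -0.78 ± 0.15, adjusted p = 0.0139). opa, a zinc finger factor of maturing INPs, was at 15.7, 15.4 and 10.8 CPM in brat-KD/Spt5-KD-labelled libraries, at 16.1 ± 6.89 CPM in brat-KD and at 78.8, 133 and 96 CPM in control NB II (log2 fold change -2.87 ± 0.35, adjusted p = 0.00635, past the threshold in 5 of the 6 fits with a library left out). TfAP-2, encoding the AP-2 transcription factor, was at 64.2, 45.8 and 28.9 CPM in brat-KD/Spt5-KD-labelled libraries against 135, 168 and 152 CPM in control NB II (adjusted p = 0.0243), below brat-KD as well (log2 fold change -1.06 ± 0.29, adjusted p = 0.0471). TfAP-2 overlaps another annotated gene.

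ase, the proneural factor that distinguishes maturing INPs from NB II, was at 19.4, 24.2 and 30.4 CPM in brat-KD/Spt5-KD-labelled libraries and at 60.3, 69.4 and 61.1 CPM in control NB II. The genotypes did not overlap, yet the adjusted p was 0.0527, and 0.0101 with both replicates 1 left out. The remaining INP factors were more scattered. ey, which marks old INPs, was at 0, 7.27 and 10.3 CPM in brat-KD/Spt5-KD-labelled libraries against 54.7, 63.7 and 52.7 CPM in control NB II (adjusted p = 0.133), whereas ham was at 291, 5.07 and 114.6 CPM in brat-KD/Spt5-KD-labelled libraries against 148, 88.2 and 90.5 CPM in control NB II and erm at 70.01, 12.6 and 52.4 CPM in brat-KD/Spt5-KD-labelled libraries against 56.4, 71.6 and 66.2 CPM in control NB II, in both cases with replicate 1 of brat-KD/Spt5-KD high and replicate 2 low. ase, ey, ham and erm overlap another annotated gene.

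Neuroblast identity genes gave no common direction. Of 14 self-renewal factors, 2 were called higher (0 to 5 with 1 library left out and 6 with both replicates 1 left out) and none lower (2 in DESeq2, 2 at an unadjusted p under 0.05), with a median log2 fold change of -0.04, where the same list had 0.94 in brat-KD against the same controls. tailless (tll), a nuclear receptor that specifies type II identity, was at 104, 160.2 and 83.2 CPM in brat-KD/Spt5-KD-labelled libraries, at 109.9 ± 6.01 CPM in brat-KD and at 40.3, 30.6 and 25.9 CPM in control NB II (log2 fold change 1.84 ± 0.34, adjusted p = 0.0231). pointed (pnt), the Ets factor of type II lineages, was at 144, 238 and 169 CPM in brat-KD/Spt5-KD-labelled libraries, at 363 ± 62.1 CPM in brat-KD and at 85.2, 51.5 and 60.3 CPM in control NB II (log2 fold change 1.49 ± 0.30, adjusted p = 0.028). Its level was above every control but below brat-KD (log2 fold change -0.99 ± 0.22, adjusted p = 0.0241). The call passed in 2 of the 6 fits with a library left out for tll and in 1 for pnt. staufen (stau), an RNA-binding protein that carries prospero RNA at division, was the only gene called higher (brat itself was the only one called lower) among 16 polarity factors, with 1038, 893 and 688 CPM in brat-KD/Spt5-KD-labelled libraries against 401, 358 and 393 CPM in control NB II (log2 fold change 1.19 ± 0.21, adjusted p = 0.0201). brat and pnt overlap another annotated gene.

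**Figure D2:**
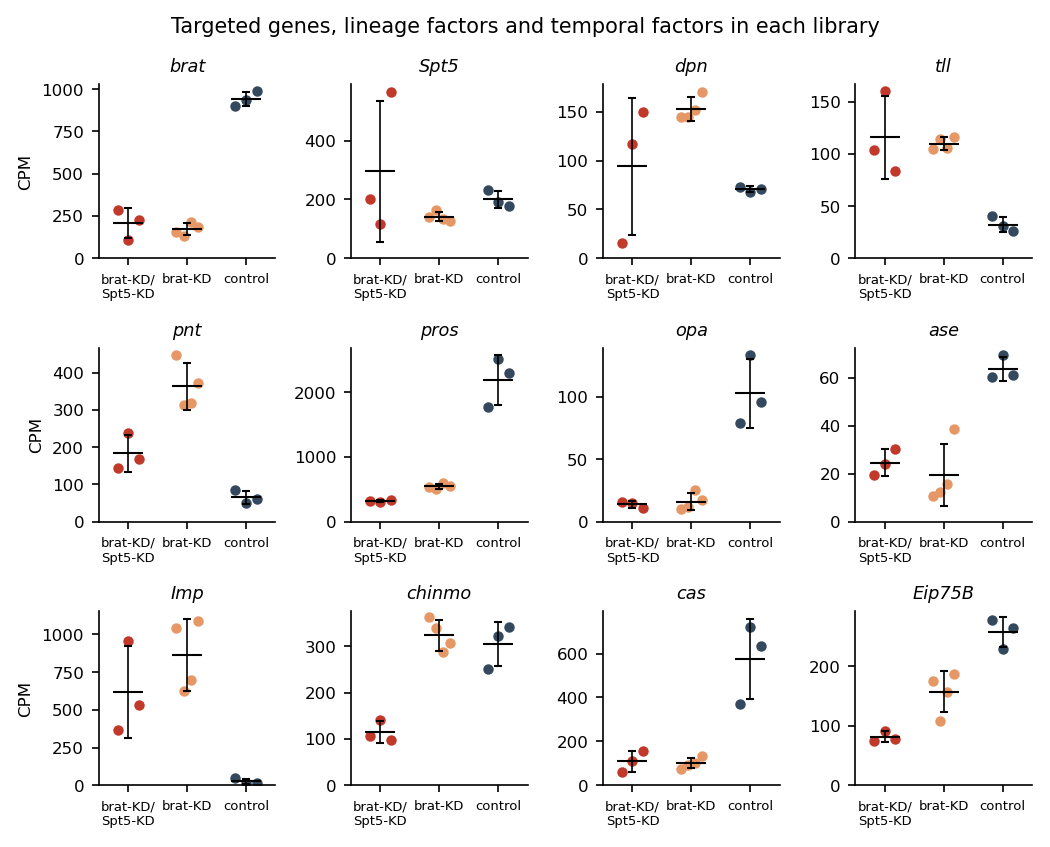
CPM of 12 genes on a linear axis in brat-KD/Spt5-KD-labelled libraries (left, n = 3), in brat-KD (middle, n = 4) and in control NB II (right, n = 3), with 1 point per library and the mean with its SD. pros, opa, cas and Eip75B lie below every control, Imp, tll and pnt lie above every control, and replicate 3 of brat-KD/Spt5-KD stands high for Spt5.

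Temporal identity regulators, which change in neuroblasts as larvae age, were called in both directions. Of 13 tested, 1 was called higher and 3 lower (1 to 6 with 1 library left out and 6 with both replicates 1 left out). Imp, an RNA-binding protein of young neuroblasts, was at 365, 958 and 529 CPM in brat-KD/Spt5-KD-labelled libraries, at 863 ± 238 CPM in brat-KD and at 46.4, 16.6 and 13.9 CPM in control NB II. The lowest such library was far above the highest control, and the log2 fold change was 4.59 ± 0.60 (adjusted p = 0.00732, past the threshold in 5 of the 6 fits with a library left out). Imp (chromosome X, 10787869 to 10824277) did not pass the test against brat-KD (log2 fold change -0.49 ± 0.34, adjusted p = 0.407). lncRNA:CR45204, which overlaps Imp, had the same order of libraries with 98.1, 293 and 166 CPM in brat-KD/Spt5-KD-labelled libraries against 12.8, 3.52 and 3.264 CPM in control NB II, and how the reads divide between both genes cannot be told. Syp, whose protein and Imp oppose each other, was at 1039, 503 and 843 CPM in brat-KD/Spt5-KD-labelled libraries, at 3409 ± 617 CPM in brat-KD and at 2330, 1308 and 1353 CPM in control NB II (adjusted p = 0.108 against the control and 0.00493 against brat-KD, chosen after its values were seen). Imp and Syp overlap another annotated gene.

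The 3 lower regulators fell to levels that did not reach any control. chinmo, a BTB zinc finger factor of early-born neurons and young neuroblasts, was at 106, 142 and 98.4 CPM in brat-KD/Spt5-KD-labelled libraries, at 324 ± 33.7 CPM in brat-KD and at 250.5, 323 and 342 CPM in control NB II. Its RNA was thus lower than in either other genotype, with a log2 fold change of -1.40 ± 0.23 against the control (adjusted p = 0.0167) and of -1.50 ± 0.19 against brat-KD (adjusted p = 0.00353). The protein had another order in the study's staining. Chinmo was absent from control NB II lineages and present in most cells of the co-depleted larval clusters. castor (cas), a zinc finger factor of the temporal series, was at 62.2, 110 and 157 CPM in brat-KD/Spt5-KD-labelled libraries, at 101 ± 24.6 CPM in brat-KD and at 369, 723 and 633 CPM in control NB II (log2 fold change -2.40 ± 0.40, adjusted p = 0.0167). Eip75B, an ecdysone-induced nuclear receptor, was at 75.1, 91.9 and 77.4 CPM in brat-KD/Spt5-KD-labelled libraries, at 157 ± 34.5 CPM in brat-KD and at 278, 229 and 265 CPM in control NB II. Its log2 fold change was -1.66 ± 0.20 (adjusted p = 0.00635), it passed whichever library was left out, and it was also below brat-KD (log2 fold change -0.95 ± 0.23, adjusted p = 0.0295). chinmo and Eip75B overlap another annotated gene.

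Most of the called genes of differentiated neurons were lower. Among 28 pan-neuronal and synaptic genes, 8 were called lower (2 to 14 with 1 library left out and 19 with both replicates 1 left out) and 2 higher, and the median log2 fold change was -1.62. fne, an RNA-binding protein of the ELAV family, was at 73, 142 and 76.9 CPM in brat-KD/Spt5-KD-labelled libraries, at 86.1 ± 21.8 CPM in brat-KD and at 507, 714 and 810.5 CPM in control NB II (log2 fold change -2.80 ± 0.33, adjusted p = 0.00586). elav itself was at 119, 64.6 and 83.7 CPM in brat-KD/Spt5-KD-labelled libraries, at 101 ± 17.4 CPM in brat-KD and at 470.5, 368 and 330.1 CPM in control NB II (log2 fold change -2.12 ± 0.28, adjusted p = 0.00759). Both RNA-binding proteins were thus far below every control, and both passed whichever library was left out. ChAT, which makes acetylcholine, was at 8.06, 9.26 and 4.9 CPM in brat-KD/Spt5-KD-labelled libraries against 58.5, 85.3 and 80.7 CPM in control NB II (log2 fold change -3.31 ± 0.42, adjusted p = 0.00714), and nrv3, a neuronal subunit of the sodium pump, at 18.4, 9.04 and 10.3 CPM in brat-KD/Spt5-KD-labelled libraries against 53.5, 95.2 and 106 CPM in control NB II (adjusted p = 0.0166). The synaptic vesicle gene nSyb stood at 43.5, 4.19 and 2.45 CPM in brat-KD/Spt5-KD-labelled libraries and 67, 54.4 and 50.5 CPM in control NB II without passing (adjusted p = 0.363), the high value being replicate 1. fne, elav, ChAT and nrv3 overlap another annotated gene.

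Several further neuronal genes were picked out with their values in view because they lay among the most certain calls. eEF1alpha2, a translation elongation factor expressed in neurons that overlaps no other gene, was at 90.5, 37.2 and 35.3 CPM in brat-KD/Spt5-KD-labelled libraries, at 58 ± 18.8 CPM in brat-KD and at 731, 991 and 1015 CPM in control NB II (log2 fold change -4.06 ± 0.42, adjusted p = 0.00407). Appl, the fly amyloid precursor-like protein, was at 26.2, 33.9 and 19.1 CPM in brat-KD/Spt5-KD-labelled libraries against 191, 329 and 279 CPM in control NB II (log2 fold change -3.32 ± 0.32, adjusted p = 0.00315) and was also below brat-KD (log2 fold change -1.41 ± 0.29, adjusted p = 0.0165). Cdk5alpha, the activator of the kinase Cdk5, was at 8.98, 5.29 and 5.88 CPM in brat-KD/Spt5-KD-labelled libraries against 77.3, 86.2 and 96 CPM in control NB II, and the synaptic scaffold gene Liprin-gamma at 13.6, 15.4 and 13.7 CPM in brat-KD/Spt5-KD-labelled libraries against 82.9, 160.3 and 165 CPM in control NB II (adjusted p = 0.00407 and 0.00411). None of the 4 reached the lowest control in any replicate, and all 4 passed in each of the 6 fits with a library left out. Appl and Liprin-gamma overlap another annotated gene.

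Receptors for transmitters showed the same direction where they were called. In a list of 17 receptor subunits, put together after values were seen, 5 were called lower (0 to 6 with 1 library left out and 10 with both replicates 1 left out) and none higher (0 in DESeq2, 0 at an unadjusted p under 0.05), with a median log2 fold change of -1.77. Octbeta3R, an octopamine receptor, was at 8.29, 4.19 and 3.92 CPM in brat-KD/Spt5-KD-labelled libraries against 46.4, 46.3 and 44.4 CPM in control NB II (log2 fold change -3.05 ± 0.55, adjusted p = 0.0213), and GluClalpha, a glutamate-gated chloride channel, at 0.23, 0.661 and 1.96 CPM in brat-KD/Spt5-KD-labelled libraries against 31.2, 22.2 and 23.9 CPM in control NB II (adjusted p = 0.0295). The acetylcholine receptor subunits nAChRalpha1 and nAChRalpha6 had log2 fold changes of -3.08 ± 0.64 and -2.95 ± 0.66. GABA-B-R3, a metabotropic GABA receptor, had 1 count in all libraries labelled brat-KD/Spt5-KD together and 7.95, 28.6 and 29.4 CPM in control NB II, a 253-fold lower level with a 95% counting interval of 45.1 to 9999. Intervals of this kind cover counting error only, since PCR copies were not marked. Octbeta3R, GluClalpha, nAChRalpha1 and nAChRalpha6 overlap another annotated gene.

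A few neuronal genes went the other way. Snap25, a SNARE protein of synaptic vesicle fusion, was at 363, 367 and 215 CPM in brat-KD/Spt5-KD-labelled libraries against 41.4, 42.3 and 42.6 CPM in control NB II (log2 fold change 2.90 ± 0.27, adjusted p = 0.00315, past the threshold whichever library was left out), and para, the voltage-gated sodium channel, at 89.4, 121 and 70.03 CPM in brat-KD/Spt5-KD-labelled libraries against 23.3, 18.6 and 17.2 CPM in control NB II (log2 fold change 2.25 ± 0.34, adjusted p = 0.012). Both were also above brat-KD (log2 fold changes 1.57 ± 0.31 and 1.84 ± 0.27, adjusted p = 0.0157 and 0.00533). Snap25 overlaps 12 annotated genes and para overlaps 4, so part of their counts may belong to neighbours. DIP-alpha, a cell surface recognition protein, was likewise high, with 3385, 3409 and 7249 CPM in brat-KD/Spt5-KD-labelled libraries, 377 ± 88 CPM in brat-KD and 1635, 995 and 1704 CPM in control NB II (log2 fold change 1.70 ± 0.38, adjusted p = 0.0385), and it overlaps 5 genes. It was the only call among 20 genes of the dpr and DIP families, beside 3.97% called higher over all genes tested.

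Members of the lists of axon guidance genes and of neuronal identity factors were lower wherever they were called. The cadherin CadN2 and beat-Vb of the beaten path family, on neither list, were called higher and are described at the end. Of 33 guidance receptors and ligands, 4 were called lower (1 to 15 with 1 library left out and 20 with both replicates 1 left out) and none higher (2 in DESeq2, 2 at an unadjusted p under 0.05), and the median was -0.82. The share called lower over all genes tested was 3.32%. Con, a homophilic adhesion protein, was at 27.4, 24.7 and 22 CPM in brat-KD/Spt5-KD-labelled libraries against 134, 129 and 117 CPM in control NB II (log2 fold change -2.35 ± 0.25, adjusted p = 0.00409, 8 overlapping genes), and the immunoglobulin family member tutl at 41.5, 24.9 and 28.9 CPM in brat-KD/Spt5-KD-labelled libraries against 124, 90.9 and 77.5 CPM in control NB II (adjusted p = 0.0306). Of 26 homeobox genes and related identity factors, 2 were called lower (0 to 8 with 1 library left out and 11 with both replicates 1 left out) and none higher (2 in DESeq2, 2 at an unadjusted p under 0.05). These were onecut, with 45.8, 17.4 and 33.3 CPM in brat-KD/Spt5-KD-labelled libraries against 119, 186 and 154 CPM in control NB II (log2 fold change -2.25 ± 0.39, adjusted p = 0.02), and Rx, with 0.23, 6.61 and 20.1 CPM in brat-KD/Spt5-KD-labelled libraries against 157, 201 and 229 CPM in control NB II (log2 fold change -4.57 ± 0.98, adjusted p = 0.0349), where the spread between replicates was wide. Con and onecut overlap another annotated gene.

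**Figure D3:**
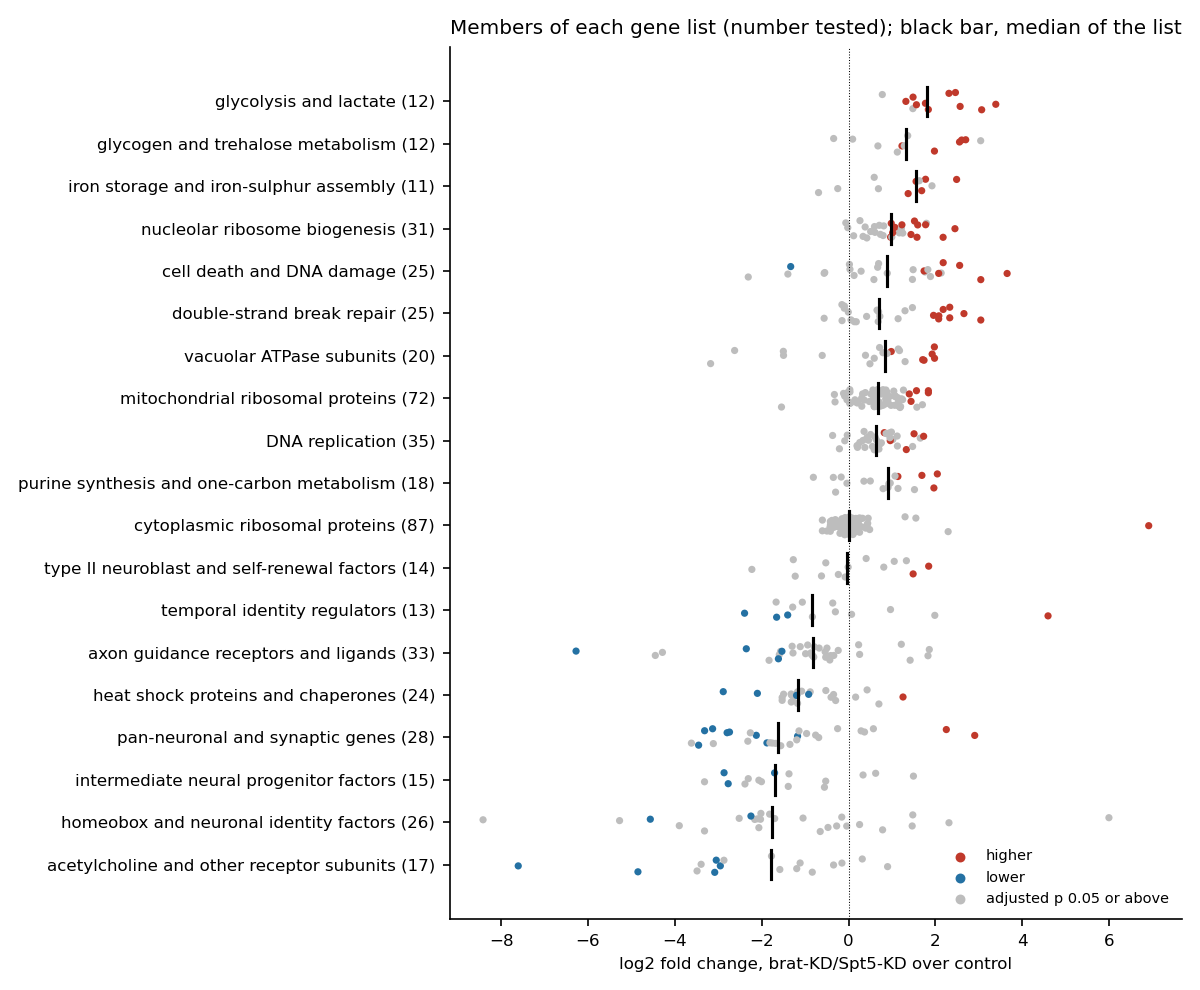
For each gene list, the log2 fold changes of its tested members (dots) and their median (bar) in brat-KD/Spt5-KD-labelled libraries over control NB II, with called members coloured by direction. Glycolysis and nucleolar genes lie almost entirely above 0, and INP factors and pan-neuronal genes mostly below it.

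The steepest decreases among well expressed genes were Drl-2, a receptor of the Derailed family, with 0, 0.661 and 1.96 CPM in brat-KD/Spt5-KD-labelled libraries against 39.9, 76.9 and 60.3 CPM in control NB II (log2 fold change -6.28 ± 1.05, adjusted p = 0.0167), and Sidpn, a bHLH factor related to deadpan, with 0, 3.09 and 1.47 CPM in brat-KD/Spt5-KD-labelled libraries against 96.3, 110.5 and 102 CPM in control NB II (log2 fold change -6.04 ± 0.89, adjusted p = 0.0113). In brat-KD, Drl-2 averaged 3.6 ± 3.27 CPM and Sidpn 10.5 ± 4.72 CPM. They were followed by alpha-Catr, Gbeta5, Fer2, Srpk79D, Eaat2, trv, CG9098 and CG15478, with log2 fold changes of -5.99 to -4.85. The bHLH gene Fer2 was at 0, 4.19 and 0.979 CPM in brat-KD/Spt5-KD-labelled libraries against 89.95, 108 and 91.6 CPM in control NB II (adjusted p = 0.0189) and Eaat2, an excitatory amino acid transporter, at 0, 0.441 and 2.94 CPM in brat-KD/Spt5-KD-labelled libraries against 37.9, 44.6 and 38.1 CPM in control NB II (adjusted p = 0.0407). All 10 had a lower mean in brat-KD than in control NB II as well. trv was the most certain of them, with 2.3, 3.09 and 1.47 CPM in brat-KD/Spt5-KD-labelled libraries against 66.3, 75 and 76.4 CPM in control NB II, a log2 fold change of -4.93 ± 0.47 and an adjusted p of 0.00315, and it passed whichever library was left out. Genes with at most 3 counts in every library labelled brat-KD/Spt5-KD numbered 17 among those called lower. One of them, asRNA:CR45960, was at 0 in brat-KD/Spt5-KD-labelled libraries and at 16.4, 11.4 and 12.8 CPM in control NB II, which is at least 14.5-fold lower when 3 counts per library are taken as the limit. alpha-Catr, Fer2, Srpk79D, trv and asRNA:CR45960 overlap another annotated gene.

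Transcripts of glycolytic enzymes were higher. Of 12 genes of the pathway and lactate formation, 10 were called higher (5 to 12 with 1 library left out and 12 with both replicates 1 left out) and none lower (0 in DESeq2, 0 at an unadjusted p under 0.05). The libraries of both genotypes did not overlap for any of the 12, as for 34.1% of all genes tested and for every gene called. The median log2 fold change was 1.80, where the list had 1.41 in brat-KD against the same controls. The summed level was 5149, 9167 and 7510 CPM in brat-KD/Spt5-KD-labelled libraries, 4680 to 5807 CPM in brat-KD and 2200, 2040 and 2046 CPM in control NB II. Gapdh2 (chromosome X, 15868145 to 15869661), a glyceraldehyde-3-phosphate dehydrogenase, was at 1020, 1257 and 1063 CPM in brat-KD/Spt5-KD-labelled libraries, at 499 ± 144 CPM in brat-KD and at 254, 171 and 183 CPM in control NB II. Gapdh2 was above the control (log2 fold change 2.46 ± 0.23, adjusted p = 0.00315) and above brat-KD (log2 fold change 1.15 ± 0.23, adjusted p = 0.0169). Other enzymes of the pathway lay above every control too. Gapdh1, its paralog, was at 989, 1832 and 1471 CPM in brat-KD/Spt5-KD-labelled libraries against 265, 302 and 298 CPM in control NB II (log2 fold change 2.31 ± 0.26, adjusted p = 0.00475), and the aldolase gene Ald1 at 698, 1323 and 1091 CPM in brat-KD/Spt5-KD-labelled libraries against 190.4, 152 and 183 CPM in control NB II (log2 fold change 2.57 ± 0.28, adjusted p = 0.00409). Ald1 overlaps another annotated gene.

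Lactate dehydrogenase followed a different order of genotypes. Ldh was at 69.8, 151 and 119.5 CPM in brat-KD/Spt5-KD-labelled libraries, at 322 ± 59.9 CPM in brat-KD and at 9.93, 9.75 and 12.8 CPM in control NB II. It was above every control (log2 fold change 3.39 ± 0.38, adjusted p = 0.00483) but below brat-KD (log2 fold change -1.51 ± 0.28, adjusted p = 0.0117). Gapdh1, Gapdh2, Ald1 and Ldh passed whichever library was left out. Eno and Hex-A were the pathway members that were not called, with log2 fold changes of 0.78 ± 0.26 and 1.48 ± 0.42 (adjusted p = 0.119 and 0.0787). The lowest adjusted p of all 8506 genes belonged to Gdh, glutamate dehydrogenase, which feeds glutamate carbon into the tricarboxylic acid cycle and was singled out for this reason. Gdh (chromosome 3R, 23935958 to 23943101, 1 overlapping gene) was at 1299, 1289 and 1369 CPM in brat-KD/Spt5-KD-labelled libraries, at 497 ± 88.6 CPM in brat-KD and at 105, 112 and 82.9 CPM in control NB II. The libraries within each genotype lay close together, the log2 fold change was 3.72 ± 0.21 (adjusted p = 0.00124), and Gdh was above brat-KD as well (log2 fold change 1.40 ± 0.18, adjusted p = 0.00394). In the tricarboxylic acid cycle itself 2 of 17 genes were called higher (0 to 6 with 1 library left out and 7 with both replicates 1 left out), the citrate synthase gene kdn and the malate dehydrogenase gene Mdh2, with log2 fold changes of 1.10 ± 0.26 and 1.48 ± 0.27. Among all genes tested 3.97% were called higher. Ald1 and Eno overlap another annotated gene.

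Genes of carbohydrate stores and of acidification were also called, in lists put together after values were seen. Of 12 genes of glycogen and trehalose metabolism, 5 were called higher (0 to 7 with 1 library left out and 9 with both replicates 1 left out) and none lower (0 in DESeq2, 0 at an unadjusted p under 0.05), with a summed level of 1520, 1680 and 1395 CPM in brat-KD/Spt5-KD-labelled libraries, 1436 to 1586 CPM in brat-KD and 498, 443 and 407 CPM in control NB II. Treh, which splits trehalose, was at 382, 629 and 407 CPM in brat-KD/Spt5-KD-labelled libraries against 123, 58.5 and 52.4 CPM in control NB II (log2 fold change 2.60 ± 0.39, adjusted p = 0.012), and glycogen phosphorylase, Glyp, at 214, 177 and 162 CPM in brat-KD/Spt5-KD-labelled libraries against 57.6, 42.7 and 40.2 CPM in control NB II (log2 fold change 1.98 ± 0.25, adjusted p = 0.00681). Glycogenin (Gyg) and the branching enzyme AGBE, both needed to build glycogen, had log2 fold changes of 2.70 ± 0.35 and 2.55 ± 0.39. Of 20 vacuolar ATPase subunits, 6 were called higher (1 to 11 with 1 library left out and 11 with both replicates 1 left out). VhaSFD, a subunit of the cytosolic part of the pump, was at 199, 252 and 199 CPM in brat-KD/Spt5-KD-labelled libraries against 52.2, 59.1 and 53.5 CPM in control NB II (log2 fold change 1.98 ± 0.21, adjusted p = 0.00409, past the threshold whichever library was left out). Treh, Gyg and VhaSFD overlap another annotated gene.

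**Figure D4:**
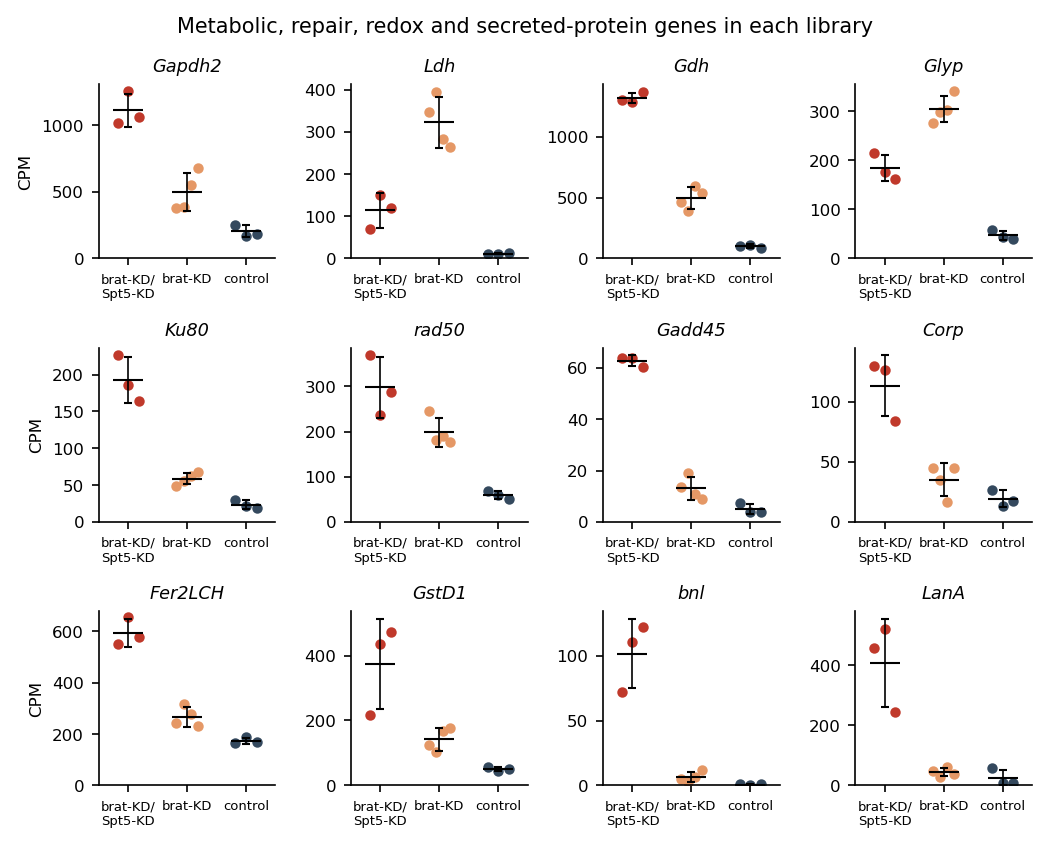
CPM of 12 genes of metabolism, DNA repair, iron storage, detoxification and signalling on a linear axis, in brat-KD/Spt5-KD-labelled libraries (left, n = 3), in brat-KD (middle, n = 4) and in control NB II (right, n = 3), with 1 point per library and the mean with its SD. For each of the 12 genes all points of brat-KD/Spt5-KD lie above all control points, and for Ldh and Glyp the brat-KD mean is higher still.

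Genes of ribosome synthesis were among those called higher. Among 31 nucleolar factors, 12 were called higher (1 to 22 with 1 library left out and 23 with both replicates 1 left out) and none lower (0 in DESeq2, 0 at an unadjusted p under 0.05), 29 had a positive log2 fold change, and the median was 0.98, where brat-KD had 1.18 against the same controls. Polr1A, the largest subunit of RNA polymerase I, was at 368, 423 and 324 CPM in brat-KD/Spt5-KD-labelled libraries, at 369 ± 15.3 CPM in brat-KD and at 79.3, 90.5 and 76.8 CPM in control NB II (log2 fold change 2.18 ± 0.20, adjusted p = 0.00315), and passed whichever library was left out. The kinase RIOK1, which acts in the maturation of the small ribosomal subunit, was at 78.1, 89.5 and 87.7 CPM in brat-KD/Spt5-KD-labelled libraries against 14.3, 15.9 and 16.5 CPM in control NB II (adjusted p = 0.00652), and the nucleolar helicase gene pit at 166, 311 and 270.3 CPM in brat-KD/Spt5-KD-labelled libraries against 73, 92.9 and 85.1 CPM in control NB II (adjusted p = 0.0201). Of 87 cytoplasmic ribosomal protein genes, by contrast, 1 was called higher (0 to 7 with 1 library left out and 6 with both replicates 1 left out) and none lower (1 in DESeq2, 1 at an unadjusted p under 0.05), and the median log2 fold change was -0.001. The exception, RpL22-like, an alternative form of RpL22 best known from the germline, was at 25.1, 5.29 and 8.32 CPM in brat-KD/Spt5-KD-labelled libraries against 2 counts in all controls together, a 138-fold difference with a 95% counting interval of 37.5 to 1148. Polr1A and pit overlap another annotated gene.

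Genes of mitochondrial ribosomes and respiratory complex I had mostly positive log2 fold changes, and those called were higher. The share called higher over all genes tested was 3.97%. Of 72 mitochondrial ribosomal protein genes, 5 were called higher (0 to 26 with 1 library left out and 32 with both replicates 1 left out) and none lower (1 in DESeq2, 1 at an unadjusted p under 0.05), with 65 positive log2 fold changes and a median of 0.68, where brat-KD had -0.04 against the same controls. mRpS17, a small subunit protein, was at 76.7, 103 and 91.6 CPM in brat-KD/Spt5-KD-labelled libraries, at 28.7 ± 7.13 CPM in brat-KD and at 26.2, 24.4 and 25.2 CPM in control NB II (log2 fold change 1.84 ± 0.28, adjusted p = 0.0126, and 0.0075 against brat-KD). Of 34 complex I subunits only ND-49 was called (log2 fold change 1.40 ± 0.23, adjusted p = 0.0155, 0 to 12 with 1 library left out and 15 with both replicates 1 left out), while 29 had a positive value. Marf, the mitofusin of outer membrane fusion, was at 164, 136 and 128 CPM in brat-KD/Spt5-KD-labelled libraries, at 198 ± 3.81 CPM in brat-KD and at 48, 73.4 and 60.5 CPM in control NB II (log2 fold change 1.23 ± 0.25, adjusted p = 0.0306). ND-49 and Marf overlap another annotated gene.

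Some enzymes of purine synthesis were called higher than in control NB II, and Gart was not called. Of 18 genes of purine synthesis and one-carbon metabolism, 4 were called higher (0 to 7 with 1 library left out and 9 with both replicates 1 left out) and none lower (0 in DESeq2, 0 at an unadjusted p under 0.05), beside 3.97% called higher over all genes tested. Adsl, adenylosuccinate lyase, was at 91.4, 94.5 and 107 CPM in brat-KD/Spt5-KD-labelled libraries, at 39.7 ± 6.59 CPM in brat-KD and at 21.3, 24.1 and 29.6 CPM in control NB II (log2 fold change 1.96 ± 0.28, adjusted p = 0.0104), and Paics, which acts earlier in the pathway, was at 172, 167 and 175 CPM in brat-KD/Spt5-KD-labelled libraries against 64.1, 28.3 and 32.4 CPM in control NB II (adjusted p = 0.0182). Gart, a multifunctional enzyme of the same pathway, was at 49.3, 60.6 and 97 CPM in brat-KD/Spt5-KD-labelled libraries, at 359 ± 48.1 CPM in brat-KD and at 87.1, 84.8 and 81.8 CPM in control NB II. It did not pass against the control (log2 fold change -0.30 ± 0.31, adjusted p = 0.667) and was below brat-KD (log2 fold change -2.40 ± 0.27, adjusted p = 0.0024). Adsl and Gart overlap another annotated gene.

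Myc, the growth regulator, and several genes described for Brat-depleted NB II were not called against the control. Myc was at 114.7, 249 and 173 CPM in brat-KD/Spt5-KD-labelled libraries, at 446 ± 81.5 CPM in brat-KD and at 69.9, 91.6 and 97.5 CPM in control NB II, with an adjusted p of 0.0909 against the control and a log2 fold change of -1.33 ± 0.27 against brat-KD (adjusted p = 0.0173). The long noncoding RNA cherub was at 7641, 9590 and 8843 CPM in brat-KD/Spt5-KD-labelled libraries, at 34030 ± 5784 CPM in brat-KD and at 11130, 13070 and 10710 CPM in control NB II (adjusted p = 0.339 against the control, 0.00581 against brat-KD). foxo, the transcription factor of insulin signalling, was at 2.07, 6.39 and 4.41 CPM in brat-KD/Spt5-KD-labelled libraries, at 52 ± 9.92 CPM in brat-KD and at 5.24, 4.32 and 7.18 CPM in control NB II. The target Thor, a translational repressor, was at 25.1, 39 and 41.6 CPM in brat-KD/Spt5-KD-labelled libraries, at 199.5 ± 125 CPM in brat-KD and at 6.86, 4.42 and 17 CPM in control NB II. Neither passed against the control (adjusted p = 0.897 and 0.14), and both were below brat-KD (log2 fold changes -3.60 ± 0.48 and -2.51 ± 0.46). With 3 libraries a genotype, these tests leave room for differences, since the standard error was 0.32 for Myc and 0.68 for Thor on the log2 scale. Myc overlaps another annotated gene.

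DNA replication genes had mostly positive log2 fold changes, and those called were higher. Of 35 tested, 5 were called higher (0 to 8 with 1 library left out and 14 with both replicates 1 left out) and none lower (0 in DESeq2, 0 at an unadjusted p under 0.05), and 31 had a positive log2 fold change. The share called higher over all genes tested was 3.97%. Mcm6, a subunit of the replicative helicase, was at 566, 514 and 527 CPM in brat-KD/Spt5-KD-labelled libraries against 187, 229 and 224 CPM in control NB II (log2 fold change 1.33 ± 0.18, adjusted p = 0.00769), and the catalytic polymerase subunits PolA1 and PolE1 had log2 fold changes of 1.51 ± 0.27 and 1.73 ± 0.32. Cell cycle regulators had a median of -0.17, and 3.32% of all genes tested were called lower. Of 29 tested, fzy, an activator of the anaphase-promoting complex in mitosis, was called higher with 310.2, 253 and 278 CPM in brat-KD/Spt5-KD-labelled libraries against 126, 142 and 149.7 CPM in control NB II (adjusted p = 0.0232), and fzr, which activates the same complex on exit from the cycle, was called lower with 47.7, 30.2 and 34.8 CPM in brat-KD/Spt5-KD-labelled libraries against 80.5, 112 and 124 CPM in control NB II (adjusted p = 0.031). PolA1 and fzy overlap another annotated gene.

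Transcripts of DNA damage repair and stress included genes above both other genotypes. Of 25 genes of cell death and DNA damage, 6 were called higher (1 to 8 with 1 library left out and 10 with both replicates 1 left out) and 1 lower. Ku80, a subunit of the heterodimer that binds broken DNA ends in end joining, was at 226, 186 and 164 CPM in brat-KD/Spt5-KD-labelled libraries, at 58.8 ± 7.98 CPM in brat-KD and at 30.2, 20.9 and 18.9 CPM in control NB II. All 3 of these libraries were above every other library, with log2 fold changes of 3.04 ± 0.28 against the control (adjusted p = 0.00315) and of 1.71 ± 0.20 against brat-KD (adjusted p = 0.00245). Gadd45 and Corp had the same order of genotypes. Gadd45, induced by DNA damage and stress, was at 64, 63.9 and 60.2 CPM in brat-KD/Spt5-KD-labelled libraries, at 13.1 ± 4.39 CPM in brat-KD and at 7.22, 3.82 and 3.92 CPM in control NB II (log2 fold change 3.65 ± 0.48, adjusted p = 0.00732 against the control and 0.00634 against brat-KD). Corp, a regulator of p53, was at 129, 126 and 83.7 CPM in brat-KD/Spt5-KD-labelled libraries, at 35.2 ± 13.5 CPM in brat-KD and at 26.7, 13.5 and 17.6 CPM in control NB II (adjusted p = 0.0106 and 0.019). Ku80 passed whichever library was left out, Gadd45 in 5 of the 6 fits and Corp in 3. Xrp1, a stress-responsive bZIP factor, was at 159.6, 271 and 307 CPM in brat-KD/Spt5-KD-labelled libraries against 50.8, 92.9 and 76.8 CPM in control NB II (log2 fold change 1.74 ± 0.33, adjusted p = 0.0249), and did not pass against brat-KD, at 226 ± 29.4 CPM (log2 fold change 0.12 ± 0.24, adjusted p = 0.818). Corp and Xrp1 overlap another annotated gene.

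The inhibitor of apoptosis Diap1 was the gene called lower in that list, with 211, 144 and 211 CPM in brat-KD/Spt5-KD-labelled libraries against 485, 452 and 487 CPM in control NB II (log2 fold change -1.33 ± 0.21, adjusted p = 0.0147). Of its antagonists, rpr was at 31.8, 31.7 and 17.1 CPM in brat-KD/Spt5-KD-labelled libraries against 5.06, 8.14 and 10.7 CPM in control NB II and hid at 10.8, 9.92 and 5.88 CPM in brat-KD/Spt5-KD-labelled libraries against 1.99, 1.1 and 4.13 CPM in control NB II without passing the test (adjusted p = 0.152 and 0.344). In a list of 25 double-strand break repair genes, put together after values were seen, 8 were called higher (3 to 9 with 1 library left out and 10 with both replicates 1 left out) and none lower (0 in DESeq2, 1 at an unadjusted p under 0.05), and the summed level was 2528, 2292 and 1925 CPM in brat-KD/Spt5-KD-labelled libraries, 1801 to 2038 CPM in brat-KD and 1047, 988 and 995 CPM in control NB II. The whole MRN complex, which senses and trims broken ends, was among them, and each subunit was above every control. rad50 was at 370.3, 237 and 287 CPM in brat-KD/Spt5-KD-labelled libraries against 68.8, 59.1 and 50.04 CPM in control NB II (log2 fold change 2.33 ± 0.25), mre11 at 396, 389 and 224 CPM in brat-KD/Spt5-KD-labelled libraries against 70.6, 92.5 and 75.9 CPM in control NB II (log2 fold change 2.08 ± 0.28) and nbs at 129, 53.3 and 73.5 CPM in brat-KD/Spt5-KD-labelled libraries against 16.3, 14.8 and 20.02 CPM in control NB II (log2 fold change 2.33 ± 0.42), with adjusted p of 0.00409, 0.00759 and 0.0213. tefu, the kinase ATM that MRN activates, was at 220.2, 117 and 69.5 CPM in brat-KD/Spt5-KD-labelled libraries against 40.5, 30.3 and 19.1 CPM in control NB II (adjusted p = 0.0375), and PolZ1, the catalytic subunit of a translesion polymerase, at 252, 191 and 159.6 CPM in brat-KD/Spt5-KD-labelled libraries against 42.8, 25.7 and 27.2 CPM in control NB II (adjusted p = 0.00531). Ku80, Irbp and tefu were counted as called in this list and in that of cell death and DNA damage, so the 2 counts are not separate. Diap1, mre11, nbs and PolZ1 overlap another annotated gene.

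A few redox and iron genes rose. Of 19 detoxification and redox genes, 4 were called higher (2 to 5 with 1 library left out and 7 with both replicates 1 left out) and none lower (1 in DESeq2, 3 at an unadjusted p under 0.05). GstD1, a glutathione transferase of the oxidative stress response, was at 217, 436 and 474 CPM in brat-KD/Spt5-KD-labelled libraries, at 142 ± 35.1 CPM in brat-KD and at 57.3, 44.3 and 49.2 CPM in control NB II (log2 fold change 2.90 ± 0.33, adjusted p = 0.00485 against the control, 0.0201 against brat-KD). The antioxidant enzymes did not all follow. Thioredoxin reductase, Trxr1, was at 716, 931 and 786 CPM in brat-KD/Spt5-KD-labelled libraries against 359, 394 and 409.9 CPM in control NB II (log2 fold change 1.06 ± 0.19, adjusted p = 0.02). Catalase (Cat) gave 44.5, 40.3 and 55.3 CPM in brat-KD/Spt5-KD-labelled libraries against 164, 84.7 and 95.7 CPM in control NB II and did not pass (adjusted p = 0.0566). Of 11 genes of iron storage and iron-sulphur cluster assembly, a list put together after values were seen, 5 were called higher (2 to 6 with 1 library left out and 7 with both replicates 1 left out). Both ferritin chains were among them. Fer2LCH was at 551, 655 and 578 CPM in brat-KD/Spt5-KD-labelled libraries, at 268 ± 38.7 CPM in brat-KD and at 165, 187 and 171 CPM in control NB II (log2 fold change 1.77 ± 0.18, adjusted p = 0.00331 against the control, 0.00493 against brat-KD), and Fer1HCH at 439, 706 and 635 CPM in brat-KD/Spt5-KD-labelled libraries against 157, 197 and 201 CPM in control NB II (log2 fold change 1.68 ± 0.24). The cysteine desulfurase Nfs1, which provides the sulphur of the clusters, was at 202, 173 and 125 CPM in brat-KD/Spt5-KD-labelled libraries against 29.6, 32.1 and 27.4 CPM in control NB II (log2 fold change 2.49 ± 0.27, adjusted p = 0.00409). Trxr1, Fer2LCH, Fer1HCH and Nfs1 overlap another annotated gene.

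Chaperone transcripts that were called were lower with a single exception. Of 24 heat shock genes, 4 were called lower (1 to 10 with 1 library left out and 14 with both replicates 1 left out), 1 was called higher, and the median log2 fold change was -1.18. The summed level was 42810, 34840 and 45440 CPM in brat-KD/Spt5-KD-labelled libraries, 52600 to 76590 CPM in brat-KD and 82570, 55820 and 101000 CPM in control NB II. Hsp67Ba, a small heat shock protein whose gene overlaps an antisense gene, was at 95.8, 69.2 and 111 CPM in brat-KD/Spt5-KD-labelled libraries, at 176 ± 33.8 CPM in brat-KD and at 535, 639.7 and 858 CPM in control NB II (log2 fold change -2.89 ± 0.28, adjusted p = 0.00315), past the threshold whichever library was left out. The abundant cytosolic chaperone Hsp83 had another order of genotypes. Hsp83, the fly Hsp90, was at 3331, 3144 and 3921 CPM in brat-KD/Spt5-KD-labelled libraries, at 8366 ± 674 CPM in brat-KD and at 7259, 6787 and 9803 CPM in control NB II (log2 fold change -1.20 ± 0.24, adjusted p = 0.028 against the control, 0.00918 against brat-KD). The member called higher, Hsc70-5, works in mitochondria and was at 546, 655 and 462 CPM in brat-KD/Spt5-KD-labelled libraries against 302, 194 and 202 CPM in control NB II (log2 fold change 1.25 ± 0.25, adjusted p = 0.0277). Hsp83 overlaps another annotated gene.

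The steepest increases started from almost no counts in control NB II, and 18 of the genes called higher had at most 3 counts in every control. hlk (chromosome 2R, 6721101 to 6740672) was at 97.9, 22 and 29.4 CPM in brat-KD/Spt5-KD-labelled libraries, at 1.58 ± 0.979 CPM in brat-KD and at 0 in every control, which is at least 100.1-fold higher with 3 counts per library as the limit (adjusted p = 0.0134). stl (chromosome 2R, 22807860 to 22815993, 1 overlapping gene), which encodes an extracellular metalloprotease, was at 67, 102 and 49 CPM in brat-KD/Spt5-KD-labelled libraries, at 0 in all brat-KD libraries and at 1 count in the controls together. The ratio to the control was 1572, with a 95% counting interval of 281 to 62170 (adjusted p = 0.00315). branchless (bnl, chromosome 3R, 19794073 to 19836817), the FGF ligand that guides tracheal branching, was at 71.8, 111 and 122 CPM in brat-KD/Spt5-KD-labelled libraries, at 6.33 ± 3.87 CPM in brat-KD and at 0.903, 0.201 and 0.653 CPM in control NB II. Every replicate was far above both other genotypes, with a log2 fold change of 7.50 ± 0.61 against the control (adjusted p = 0.00315) and of 3.99 ± 0.50 against brat-KD (adjusted p = 0.00349). GstE6, another glutathione transferase, was at 41, 51.1 and 33.3 CPM in brat-KD/Spt5-KD-labelled libraries against 1 count in the controls together, a ratio of 878 with a 95% counting interval of 157 to 34750, and ebony (e), which joins beta-alanine to dopamine, at 30.2, 78.7 and 43.1 CPM in brat-KD/Spt5-KD-labelled libraries against 0, 0.301 and 0.218 CPM in control NB II (log2 fold change 7.91 ± 0.98, adjusted p = 0.00635). stl, bnl, GstE6 and e passed whichever library was left out, hlk in 5 of the 6 fits. Others among the 10 largest increases were CG4998 with lncRNA:CR45893, which overlap each other, and CG1494, CR10102 and CG10184. bnl and CG1494 overlap another annotated gene.

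Secreted and matrix proteins were also found among the higher genes. Of 12 markers of hemocytes and basement membrane, 3 were called higher (0 to 3 with 1 library left out and 5 with both replicates 1 left out), beside 3.97% over all genes tested. Only 6 of the 12 had a positive log2 fold change. Among matrix genes not called, vkg, LanB1 and trol had log2 fold changes of 2.51, 1.70 and 1.66. LanB2, SPARC and Ppn, also not called, had -0.99, -0.79 and -0.55. The laminin chain LanA was at 456, 522 and 242 CPM in brat-KD/Spt5-KD-labelled libraries, at 43.7 ± 13.7 CPM in brat-KD and at 56.5, 8.84 and 8.49 CPM in control NB II (log2 fold change 4.05 ± 0.80, adjusted p = 0.028), with the control value of replicate 1 above the others, and the collagen IV chain Col4a1 was at 79, 70.5 and 69 CPM in brat-KD/Spt5-KD-labelled libraries against 0, 1.91 and 4.79 CPM in control NB II (log2 fold change 5.04 ± 1.08, adjusted p = 0.0342). Hml was the remaining call, at 15.7, 8.38 and 6.37 CPM in brat-KD/Spt5-KD-labelled libraries against 0 in every control, at least 20.4-fold higher. The summed level of the list was 958, 895 and 516 CPM in brat-KD/Spt5-KD-labelled libraries, 168 to 231 CPM in brat-KD and 343, 247 and 278 CPM in control NB II. The defining hemocyte genes NimC1 and He were at 0 in every library and srp did not exceed 2.45 CPM, while Pxn, a hemocyte peroxidase, was at 0, 5.29 and 7.35 CPM in brat-KD/Spt5-KD-labelled libraries against 33, 85.8 and 76.6 CPM in control NB II (adjusted p = 0.0806). The part of hemocytes in these levels was not tested. Ilp8, a relaxin-like peptide that is released when growth is disturbed, was at 57.4, 17.9 and 7.35 CPM in brat-KD/Spt5-KD-labelled libraries against 3 counts in the controls together, a ratio of 211 with a 95% counting interval of 71.7 to 1029 (adjusted p = 0.0219, chosen after its values were seen), and Tdc1, tyrosine decarboxylase, at 28.1, 26.4 and 25.5 CPM in brat-KD/Spt5-KD-labelled libraries against 0, 0.502 and 0 CPM in control NB II. Pxn, Ilp8 and Tdc1 overlap another annotated gene.

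Transcripts of the transcription machinery itself were called in both directions. Over all genes tested, 3.97% were called higher and 3.32% lower. Of 26 pausing and elongation factors, 2 were called higher (0 to 2 with 1 library left out and 2 with both replicates 1 left out) and 1 lower (0 to 3 with 1 library left out and 4 with both replicates 1 left out), with a median of 0.04. The higher genes were both subunits of the histone chaperone FACT, Ssrp with 751, 894 and 867 CPM in brat-KD/Spt5-KD-labelled libraries against 376, 383 and 415 CPM in control NB II (log2 fold change 1.10 ± 0.17, adjusted p = 0.0146) and dre4 with 1134, 888 and 906 CPM in brat-KD/Spt5-KD-labelled libraries against 545, 371 and 339 CPM in control NB II (log2 fold change 1.22 ± 0.24, adjusted p = 0.0277). The lower gene was fs(1)h, a bromodomain protein of the BET family, with 234, 262 and 272 CPM in brat-KD/Spt5-KD-labelled libraries against 442, 522 and 452 CPM in control NB II (log2 fold change -0.88 ± 0.18, adjusted p = 0.0282). Of 30 Mediator subunits only skd, the Med13 subunit of its kinase module, was called, with 49.3, 36.8 and 53.9 CPM in brat-KD/Spt5-KD-labelled libraries, 145 ± 32.5 CPM in brat-KD and 131, 144 and 128 CPM in control NB II. It was lower against both (log2 fold changes -1.53 ± 0.25 and -1.64 ± 0.26, adjusted p = 0.0156 and 0.00659). skd overlaps another annotated gene.

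Further lists gave few calls or none, by edgeR at the same threshold. Among 24 genes of insulin, TOR and foxo signalling none was called (2 higher and 3 lower in DESeq2, 2 and 3 at an unadjusted p under 0.05). ImpL2, a secreted antagonist of insulin-like peptides, was at 112, 69.7 and 58.3 CPM in brat-KD/Spt5-KD-labelled libraries, at 328 ± 118 CPM in brat-KD and at 33.4, 9.04 and 7.62 CPM in control NB II (adjusted p = 0.0769). Among 13 optic lobe and imaginal markers none was called either (0 higher and 2 lower in DESeq2, 0 and 6 at an unadjusted p under 0.05). Of 7 immediate early genes none was called (1 higher and 0 lower in DESeq2, 2 and 0 at an unadjusted p under 0.05), yet Arc1, a capsid-forming RNA carrier of synapses, was at 830.5, 513 and 245 CPM in brat-KD/Spt5-KD-labelled libraries, at 0.93 ± 1.13 CPM in brat-KD and at 0, 3.21 and 35.9 CPM in control NB II (adjusted p = 0.0584), with a wide spread in both genotypes. Innate immune, cuticle and fat body genes had 6, 4 and 2 members tested and no call (0, 1 and 0 higher in DESeq2, 1, 1 and 0 at an unadjusted p under 0.05). Of 9 glial markers pnt was called higher and Eaat2 lower, both given earlier. Of 348 long noncoding and antisense RNAs, 10 were called higher and 9 lower (0 to 22 with 1 library left out and 42 with both replicates 1 left out for the higher ones). Neither count exceeds the share over all genes tested, 3.97% higher and 3.32% lower. lncRNA:noe was at 2088, 2527 and 1125 CPM in brat-KD/Spt5-KD-labelled libraries, at 177 ± 59.3 CPM in brat-KD and at 355, 335 and 392.3 CPM in control NB II, above both (log2 fold changes 2.41 ± 0.31 and 3.42 ± 0.36, adjusted p = 0.00732 and 0.0024). ImpL2, pnt and lncRNA:noe overlap another annotated gene.

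Log2 fold changes were also described by the annotated span of a gene, which was known for 8439 of the genes tested (99.2%). Genes were divided into 5 bins of equal number. The median log2 fold change was 0.20 for genes of 35 to 1383 bp, 0.09 for 1384 to 2294 bp, 0.05 for 2295 to 4026 bp, -0.14 for 4027 to 9985 bp and -0.34 for 9990 to 1965857 bp. The share called lower rose with span, from 0.533% in the shortest bin to 8.23% in the longest. The share called higher did not fall with the median, at 2.49% in the shortest bin and 4.50% in the longest. In the genes that overlap no other gene the medians were 0.23, 0.11, 0.04, -0.21 and -0.45 from the shortest to the longest bin. Brat-KD against the same controls did not have this order, with -0.26, -0.03, 0.08, 0.10 and -0.18. The pattern rested on replicates 2 and 3 of brat-KD/Spt5-KD. The median of the longest bin minus that of the shortest was 0.23, -0.90 and -0.76 in brat-KD/Spt5-KD-labelled libraries, so that replicate 1 ran the other way. In control NB II it was 0.31, -0.09 and -0.24. Levels were taken against the control mean, so opposite directions among the controls are built in. With both replicates 1 left out the 5 medians were 0.18, 0.06, -0.02, -0.22 and -0.47. The difference of -0.54 between the extreme bins was smaller than the SD of 0.61 between replicates. Members of the pan-neuronal, guidance, identity, and dpr and DIP lists are long, with 88 of 107 tested in the longest bin, and their part in the pattern was not tested.

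**Figure D5:**
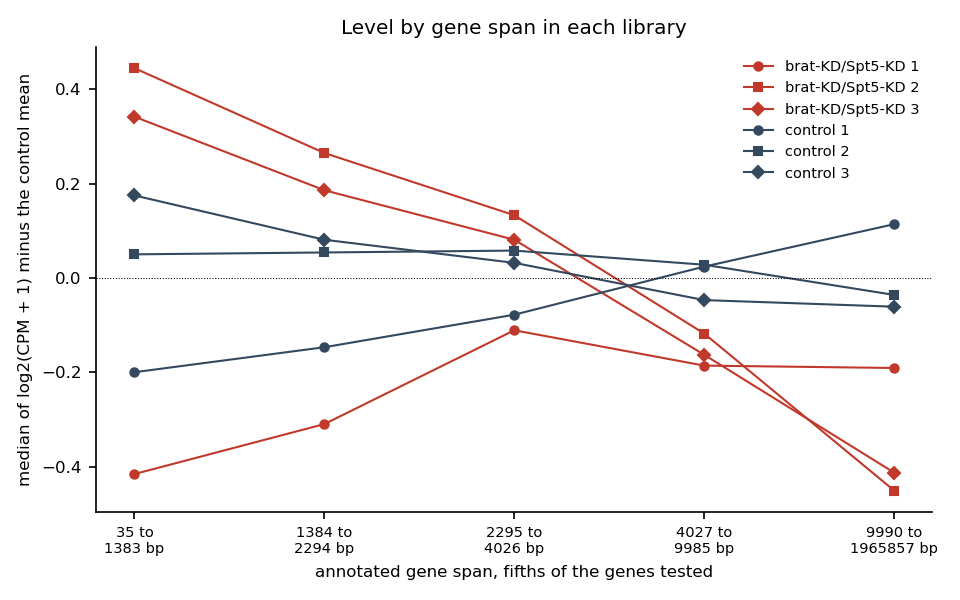
Median over genes of log2(CPM + 1) minus the control mean in 5 bins of gene span from short to long, with 1 line per library. Replicates 2 and 3 of brat-KD/Spt5-KD descend towards long genes, by 0.90 and 0.76 from the first bin to the last, and replicate 1 ascends by 0.23.

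Sex-linked transcripts differed as well, and the sex of the larvae is not given. lncRNA:roX1, a component of the male dosage compensation complex, was at 386, 269 and 673 CPM in brat-KD/Spt5-KD-labelled libraries, at 959 ± 109 CPM in brat-KD and at 1378, 1209 and 1239 CPM in control NB II (log2 fold change -1.53 ± 0.33, adjusted p = 0.0355). WDY, a gene of the Y chromosome, was at 201, 248 and 105 CPM in brat-KD/Spt5-KD-labelled libraries, at 71 ± 23.8 CPM in brat-KD and at 28.5, 18 and 20.7 CPM in control NB II (log2 fold change 3.05 ± 0.38, adjusted p = 0.00676), so that WDY was higher where roX1 was lower. The Y-linked genes kl-5 and kl-3 stood at 166, 502 and 238 and at 38.7, 37.9 and 20.6 CPM in brat-KD/Spt5-KD-labelled libraries, against 47.5, 101 and 110.3 and 10.3, 5.02 and 5.44 CPM in control NB II, without passing the test (adjusted p = 0.0638 and 0.0782). Not all Y-linked genes tested had a positive log2 fold change, and WDY was the only one called. The list of dosage compensation and Y-linked genes had 17 members tested, with 1 called higher, 1 lower and a median of -0.06. The part of the larvae's sex in the other results was not tested. lncRNA:roX1, WDY and kl-3 overlap another annotated gene.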

How the data were processed

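Sorted type II lineages of 10 pools of larvae were sequenced, and the 6 with the label brat-KD/Spt5-KD or control were compared. The authors isolated polyadenylated RNA, made directional libraries with 17 or 24 PCR cycles (not assigned to libraries in the sources used here), mapped reads to BDGP6 with bowtie2 in very sensitive local mode and deposited a count of reads per gene without normalization. The submitters' processing notes name FastQC, edgeR 3.26.8 and dm6. The program that counted reads and its annotation are not given in the sources used here. In the table, reads in introns and on the opposite strand were counted for the outer gene of nested pairs.

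Counts of 3 libraries of each genotype were fitted with edgeR 4.0.16 (TMM, filterByExpr, quasi-likelihood test) in R 4.3.3, without a term for replicate numbers, and a gene with a Benjamini-Hochberg adjusted p under 0.05 over all genes tested was counted as called. CPM of both genotypes are scaled over the 6 libraries and those of brat-KD over all 10. Log2 fold changes are given with standard errors, and levels with the SD. The libraries are not stated to come from separate crosses or days, so p-values measure the spread between these samples only. The brat-KD libraries were compared with each of both genotypes in fits of their own, which share libraries with the comparison described and are not independent of it. Library totals were 2158058 to 9753111 counts, and the shallowest library, replicate 3 of brat-KD/Spt5-KD, has the widest counting error. Levels of genes with at most 3 counts in every library of a genotype were treated as a limit of detection, and counting intervals are exact at 95%. Of 17676 genes in the table, 17549 had an entry in Ensembl release 115 (BDGP6.54), which gave coordinates, spans and overlaps, and the other 127 held 0.616% to 0.905% of the counts.

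The 34 gene lists (605 entries, 9 without a match) and the members of the comparison were chosen with earlier results of these data known, and 5 more lists (double-strand break repair, glycogen and trehalose, iron, receptor subunits, vacuolar ATPase) were added after values were seen. After values were seen, RpLP1 and LIMK1, which had entered the replication and break repair lists through older symbols and are not such genes, were taken out. A list is described by its counts and median, with no test. Genes named are brat, Spt5, the genes the study describes for these cells, the 10 largest changes in each direction among called genes whose log2 CPM averaged 4 or more, and up to 4 called members per list and direction by adjusted p, or where none was called those with the lowest p. Other genes were chosen after their values were seen. They are the marker genes, Gdh, eEF1alpha2, Appl, Cdk5alpha, Liprin-gamma, Syp, nSyb, Eno, Hex-A, Cat, rpr, hid, Pxn, Ilp8, Tdc1, kl-5, kl-3, ey, ham, erm, ase and the genes given as other observations. The other settings tried were DESeq2 1.42.0, limma 3.58.1 voom with sample quality weights, DESeq2 size factors, total counts, no low-count filter, a minimum of 10 counts per library, 1 fit of all 10 libraries, a replicate block and each library left out. The fitting code was tested on simulated data.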

Additional observations from a re-analysis of the deposited data

Results flagged for a closer look

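In 6 of the 198 named genes, 1 of the 4 brat-KD libraries stood far from the others, measured as its gap to the nearest library over the range of all 4 and held against Dixon's critical value. Chance alone gives about 1 such case in 20 groups, and the groups of 3 libraries cannot be examined in this way. The ratio was 0.851 for Eno, with 657 CPM in replicate 1 against 886 to 926 CPM in the others, and 0.844 for Myc, with 567 CPM in replicate 1 against 389.9 to 418 CPM. It was 0.934 for Marf, although its levels of 196 to 204 CPM were close together, and 0.926 for fzr, with 88.6 CPM in replicate 3 against 56.5 to 58.8 CPM. It was 0.875 for kdn, with 212 CPM in replicate 2 against 259 to 265 CPM, and 0.839 for mRpL37, with 65.9 CPM in replicate 2 against 49.8 to 52.4 CPM. These libraries enter only the brat-KD values given for orientation.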

How the results depend on the processing

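Against 620 genes called, with 338 higher and 282 lower, DESeq2 called 1347 (657 and 690), limma voom with sample quality weights 2091 (1149 and 942) and the fit of all 10 libraries 1450 (740 and 710). With at least 10 counts in every library 449 genes were lower. DESeq2 size factors, total counts and no filter moved the 3 counts by less than 1.5 times. With 1 library left out the counts were 64 to 1504 (40 to 770 higher, 24 to 734 lower). Of the alternatives chosen after seeing the data, leaving out both replicates 1 called 2513 (1182 and 1331), and the 3429 genes that overlap no other gene gave 252 (147 and 105), as fewer genes were tested. No gene among the 620 changed sign in any setting, which their lack of overlap between genotypes made close to fixed in advance. The log2 fold change of brat was -2.49 to -1.88 with 1 library left out, past the threshold only without replicate 1 or 2 of brat-KD/Spt5-KD, and that of Spt5 was -0.40 to 0.93, never past it. The cause of these shifts was not tested. The replicate block called 232 genes (143 and 89). Same-numbered libraries deviated together only weakly (r = 0.127, 0.135 and 0.0697), so the numbers were not taken as pairs, and 5 of 6 libraries correlated best with their own number. For the 198 named genes 2290 of 2973 values under other settings kept their side of the threshold and did not turn sign by more than a standard error, 189 passed it newly, 492 no longer did and 2 turned sign by more. In all, sign turned in 4 values of 3 genes, none past the threshold, and none of the 3 was called. Promoter motifs were not analysed here. Low counts limit genes under 3 counts per library, where folds are bounds.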

Other observations

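Ir40a, an ionotropic receptor gene, CadN2, a cadherin, Tg, transglutaminase, and beat-Vb, of the beaten path family, are annotated at separate places on chromosomes 2L and 3R. In each of the 10 libraries the other 3 were within 1.5-fold of Ir40a, and all 4 were called higher. The set was chosen after its values were seen. Ir40a was at 269, 320 and 138 CPM in brat-KD/Spt5-KD-labelled libraries, at 75 ± 28.9 CPM in brat-KD (SD, n = 4) and at 10.7, 10.6 and 11.1 CPM in control NB II (log2 fold change 4.49 ± 0.37, adjusted p = 0.00315). CadN2 was at 239.5, 296 and 134 CPM in brat-KD/Spt5-KD-labelled libraries, at 68.9 ± 23.2 CPM in brat-KD and at 10.3, 14.3 and 11.3 CPM in control NB II. Tg was at 229, 307 and 138 CPM in brat-KD/Spt5-KD-labelled libraries, at 79.5 ± 27.1 CPM in brat-KD and at 13.9, 13.1 and 15 CPM in control NB II. beat-Vb was at 195, 286 and 116 CPM in brat-KD/Spt5-KD-labelled libraries, at 65 ± 20.6 CPM in brat-KD and at 12.8, 14.3 and 13.9 CPM in control NB II. The 4 genes thus had the same order of libraries within brat-KD/Spt5-KD, with replicate 2 highest and replicate 3 lowest, and nearly flat control values. Whether they share reads was not tested.

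Eglp2 and Eglp4, overlapping genes of the aquaporin family whose reads cannot be told apart, had no count in any library labelled brat-KD/Spt5-KD and stood at 5.6, 28.7 and 35.2 CPM and 5.6, 28.6 and 35.2 CPM in control NB II, at least 24.8-fold and 24.7-fold lower with 3 counts per library as the limit. The Y-linked gene kl-5 was at 166, 502 and 238 CPM in brat-KD/Spt5-KD-labelled libraries, at 4.42 ± 2.44 CPM in brat-KD and at 47.5, 101 and 110.3 CPM in control NB II, so that brat-KD stood apart from both other genotypes. lncRNA:roX2, the partner of roX1, was at 0, 0.882 and 20.6 CPM in brat-KD/Spt5-KD-labelled libraries, at 7.8 ± 3.96 CPM in brat-KD and at 29.3, 31.4 and 63.3 CPM in control NB II (adjusted p = 0.388 against the control).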
